A study of Drosophila melanogaster with 2 samples.

Results

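Genes of protein folding and of the heat shock response in Drosophila melanogaster are described here, 10 of the 13945 protein-coding genes on the main chromosome arms. They are 6 chaperones made without stress (Hsp110, Hsc70-3, Hsc70-4, Hsc70-5, Hsp83 and Hsp60A), 3 chaperones induced by heat (Hsp26, Hsp27 and Hsp68), and Hsf, the heat shock transcription factor. The genes were chosen by name from measured peak signals in these data, so their counts, signals and positions are a description and carry no test. A peak was given to a gene when its summit lay in the gene body or within 1000 bp of it. The study mapped by chromatin immunoprecipitation sequencing (ChIP-seq) where an amos-eGFP fusion protein was found on DNA in whole embryos aged 0 to 18 h of the strain amos-GFP. Amos, a basic helix-loop-helix factor, starts the formation of sensory neurons. The flies carried a transgene, the pull-down used an antibody against GFP (the antibody label itself reads amos), and sonication gave fragments of 200 to 800 bp. Both libraries are biological replicates of 1 group, and no control library was analysed here. A whole embryo mixes many cell types, so a peak that is strong in few cells and one that is weak in many cannot be told apart.

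Chaperones keep newly made and damaged proteins from clumping and help them fold. Hsp70-family proteins bind exposed hydrophobic stretches with the help of DnaJ partners and of exchange factors such as Hsp110, Hsp90 proteins finish the folding of signalling proteins, and small heat shock proteins hold unfolded proteins without using ATP. On heat stress the Hsf protein forms trimers that bind inverted repeats of GAA upstream of the inducible genes, whose promoters have a TATA box and GAGA factor sites and hold a paused RNA polymerase before the stress. Many constitutively active fly promoters instead carry CGATAG, which the boundary protein BEAF-32 recognises, or TATCGATA, which the factor DREF recognises.

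Letters of the genome beside the strongest and the weakest of the peaks are shown first, since the results turn on these promoters. Sequences are RefSeq's genome of Release 6 (dm6), read 5′ to 3′ on the strand of the named gene, and each ends at the base before the transcription start site (TSS) unless stated otherwise. In the 3 runs that follow, capitals mark CGATAG or its complement CTATCG. Hsp110 is the 100 bases before its TSS (chr3L:14036919-14037018), under the strongest peak nearest to the TSS of a listed gene, and TATCGATA overlaps its first capitals. Hsp60A is the stretch from 270 to 170 bases before its TSS (chrX:11108212-11108312), around that gene's strongest summit. SMC1, the divergent neighbour of Hsp68 and a cohesin subunit, is the 98 bases before its own TSS (chr3R:24058189-24058286), where the largest signal of all these loci lay.
Hsp110: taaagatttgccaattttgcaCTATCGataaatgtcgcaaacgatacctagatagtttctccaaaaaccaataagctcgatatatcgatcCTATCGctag
Hsp60A: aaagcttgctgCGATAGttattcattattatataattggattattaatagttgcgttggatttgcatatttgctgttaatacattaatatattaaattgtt
SMC1: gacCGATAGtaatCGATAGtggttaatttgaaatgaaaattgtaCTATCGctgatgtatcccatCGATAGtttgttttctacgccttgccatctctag

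In the next 6 runs, capitals mark pairs of inverted heat shock units (GAANNTTC, or a longer run in which a further inverted GAA unit follows at the same spacing of 2 bases) and the TATA box (TATAAA). Hsp68 is the 200 bases before its TSS (chr3R:24057311-24057510, minus strand). Hsp26 is the 150 bases before the 5′ end of the gene (chr3L:9377428-9377577, minus strand), with capitals on GAANNTTC alone. Its run of ct repeats holds 6 matches to GAGAG on the opposite strand. From 250 bp before to 50 bp after the 5′ end, GAGAG was in 29.7% of all protein-coding promoters. Among the listed genes it was there in Hsp26 and the constitutive Hsc70-3 alone. From 500 bp before the 5′ end, Hsp27 also had matches and Hsp68 had none, beside 44.1% of all promoters. For Hsp27 a distal stretch around its GAANNTTC (chr3L:9383718-9383747) and the 60 bases before the TSS (chr3L:9384003-9384062) are given. The Hsp83 run lies 80 to 51 bases before the inner of its 2 TSSs (chr3L:3193136-3193165), within an exon of the longer transcript. Hsc70-4 is the 60 bases before its TSS (chr3R:15242627-15242686).
Hsp68: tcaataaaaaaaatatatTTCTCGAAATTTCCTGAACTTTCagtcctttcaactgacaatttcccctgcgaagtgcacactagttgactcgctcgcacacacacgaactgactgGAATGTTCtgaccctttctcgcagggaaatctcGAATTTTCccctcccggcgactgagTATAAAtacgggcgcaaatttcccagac
Hsp26: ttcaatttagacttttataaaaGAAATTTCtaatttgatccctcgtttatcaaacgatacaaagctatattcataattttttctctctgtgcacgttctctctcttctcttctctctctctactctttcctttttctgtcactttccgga
Hsp27 distal: atgtcaaGAAGTTTCtggttctttctccct
Hsp27 proximal: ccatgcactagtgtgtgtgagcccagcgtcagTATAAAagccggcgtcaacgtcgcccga
Hsp83: cagaagcctctaGAAGTTTCtagagacttc
Hsc70-4: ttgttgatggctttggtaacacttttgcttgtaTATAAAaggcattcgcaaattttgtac

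The 4 thresholded peak lists compared were 1 from pooled reads (5860 peaks), a conservative list from the same reads (3116), and 1 for each replicate (6214 and 2973). A listed peak had a global irreproducible discovery rate (IDR) of 0.01 or less. The signal is the authors' own value for a peak and is not scaled between lists, so ranks within a list are given beside it. The median signal was 119 in the pooled list, 76.7 in replicate 1 and 99.7 in replicate 2. Read counts are not in these lists, and the depth of each library is unknown. In the pooled list, 3636 peaks (62.0%) had a width of 360 bp, and the summit of 3633 of these was the window's centre. Of the 18 pooled summits at the listed genes, 9 were of this kind, so their positions are coarse. The conservative list repeats the pooled signals and is no separate measurement.

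All 6 constitutive chaperones had a summit in the pooled list, while of the 3 inducible ones Hsp68 had one and Hsp26 and Hsp27 had none. With Hsf this made 8 of 10 genes, beside 47% of all protein-coding genes. The conservative list held summits at 6 of 10 genes, beside 31.1%, namely 5 of 6 constitutive chaperones and Hsp68. Replicate 1 gave 9 of 10, beside 48.3%, with Hsp26 the gene that had none. Replicate 2 gave 5 of 10, beside 28.3%: Hsp110, Hsc70-5, Hsp83, Hsp60A and Hsp68. These shares were used in choosing the genes, and nothing is read from them.

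Fly genes lie close together, and 7 of the 18 pooled summits were nearer to the TSS of a neighbour than to one of the listed gene. Counting summits whose nearest TSS belonged to the gene itself left 11 summits at 7 of 10 genes, beside 31.7% of all protein-coding genes. These were the 6 constitutive chaperones and Hsp68. Under the same count the conservative list held 4 genes (Hsp110, Hsc70-4, Hsc70-5 and Hsp60A), beside 19.1%, replicate 1 held 8, beside 33.3%, and replicate 2 held 3 (Hsp110, Hsc70-5 and Hsp60A), beside 17%. No inducible chaperone had a summit of its own in the conservative list or in replicate 2. This count was chosen after seeing the data.

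**Figure D1:**
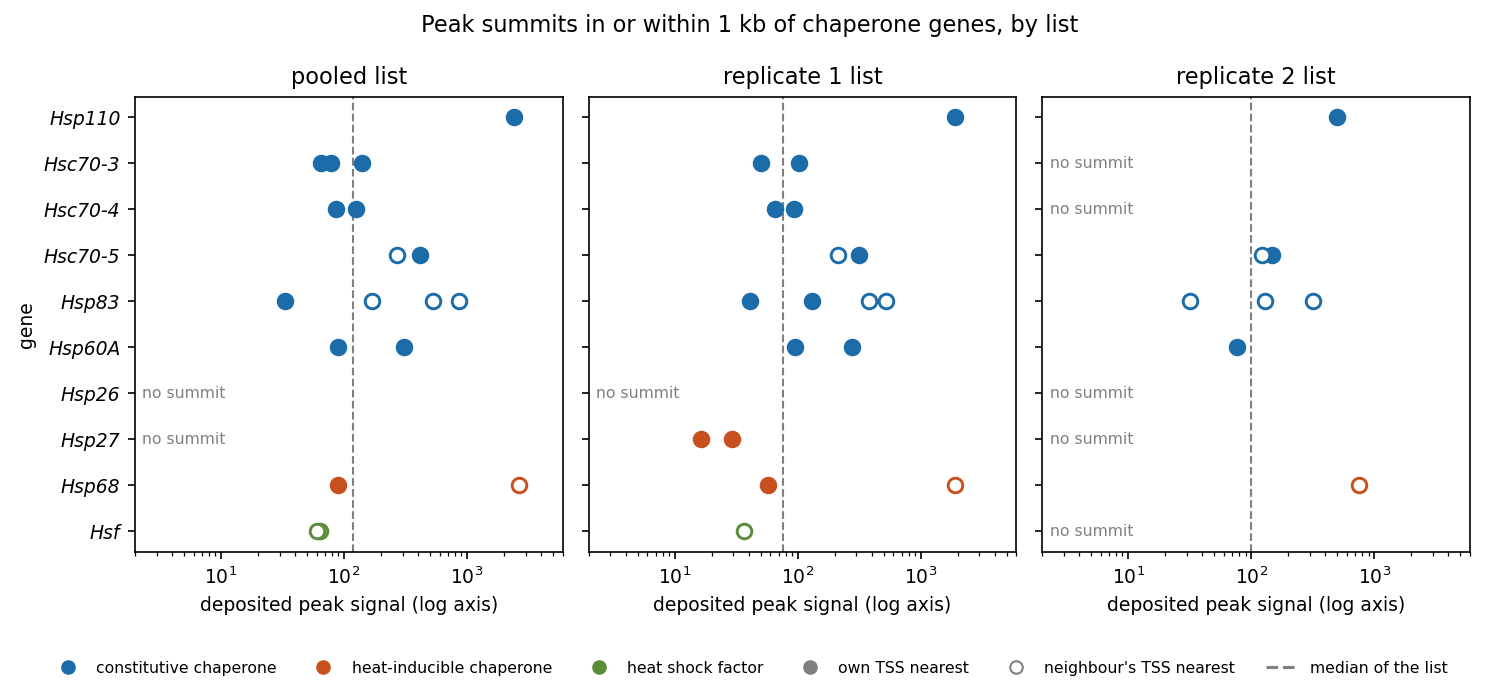
Deposited signal (log axis) of each summit in or within 1 kb of the 10 genes, in the pooled list and in the list of each replicate; filled points have the gene's own TSS nearest, open points a neighbour's, and dashed lines are the list medians. Hsp110 is far to the right in all 3 lists, and the high points of Hsp68 and Hsp83 are open.

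Hsp110 (FBgn0026418, chr3L:14037019-14043686, plus strand), an exchange factor for Hsp70 proteins, had the strongest peak of its own. In the pooled list its signal was 2402.4, rank 19 of 5860, with the summit 31 bp before the TSS in intergenic sequence. In replicate 1 the signal was 1909.2, rank 14 of 6214, at 29 bp before the TSS. In replicate 2 it was 498.9, rank 84 of 2973, at 33 bp before the TSS. The summits of both replicates thus lay within a few bases of each other, and the peak stood lower in the order of replicate 2. The 336 bp peak (chr3L:14036815-14037150) covers the run printed above, and 2 CGATAG matches and 1 TATCGATA lay within 50 bp of its summit. Among the 4424 protein-coding genes with a pooled summit of their own, Hsp110 was number 19 by signal, where the median was 153.

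The Hsp70-family cognates, which serve different compartments, differed among themselves. Hsc70-5 (FBgn0001220, chr2R:14252598-14256192, minus strand), the mitochondrial member, had its own summit in both replicates. Its pooled signal was 415.9, rank 1004, at 1 bp after the inner of its 2 TSSs, in the 5′ UTR, with 1 CGATAG. Replicate 1 gave 312.4 (rank 870) and replicate 2 gave 147.0 (rank 1036). A further summit on the far side of the shared promoter region, 268.4 in the pooled list, 212.3 in replicate 1 and 122.8 in replicate 2, lay 16 bp from the TSS of the divergent gene CG8531 in the pooled list. So a pair of separate peaks lay at this shared promoter region, and both were present in each replicate. In every list the peak at CG8531 was nearest to that neighbour's TSS, and the other to a TSS of Hsc70-5.

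Hsc70-3 (FBgn0001218, chrX:11801696-11807117, minus strand), the Hsp70 of the endoplasmic reticulum, had 3 weaker pooled summits. Their signals were 140.3 (rank 2619) and 78.4 (rank 4014), at 126 and 332 bp before the TSS, and 65.0 in an intron, 31 bp before an internal TSS. The last had a q value above 0.05. Replicate 1 gave 101.7 and 50.5 before the TSS, and replicate 2 had no region within 500 bp of a TSS of this gene even in its ranked list, which goes far below the threshold. Hsc70-4 (FBgn0266599, chr3R:15242687-15246614, plus strand), the main cytosolic cognate, had 124.1 (rank 2852) at 47 bp after the TSS in the 5′ UTR, and 86.2 (rank 3703) in an intron. Replicate 1 gave 93.8 and 65.5 at nearly the same places. In replicate 2 a region of signal 38.3, 41 bp before the TSS, missed the threshold with a −log10 IDR of 1.33. Both genes therefore stood near the middle of the pooled order and lacked a listed peak in replicate 2.

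Hsp60A (FBgn0015245, chrX:11108482-11112308, plus strand), the mitochondrial chaperonin, had its strongest summit away from the TSS. The pooled signal was 304.7, rank 1416, at 220 bp before the TSS, with 1 CGATAG in the window, and a second summit of 90.0 lay 16 bp before the TSS. Replicate 1 placed 278.8 at 243 bp and 96.0 at 44 bp before the TSS within 1 peak of 445 bp. Replicate 2 had a single peak of fixed width with a signal of 76.5 (rank 1814), whose centre was 89 bp before the TSS, between those positions. The CGATAG nearest to the summit starts at position −259 from the TSS, as in the printed run.

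Hsp83 (FBgn0001233, chr3L:3192969-3197059, plus strand), the fly Hsp90, which is made without stress and raised further by heat, had 4 pooled summits, and the strong ones were nearest to its neighbours. The strongest, 855.5 (rank 324), lay beyond its 3′ end, 55 bp from the TSS of CG14966. The second, 523.6 (rank 753), lay 33 bp from the TSS of the divergent gene CG14965, and another of 169.6 was at position −246 from the 5′ end of Hsp83 and 232 bp from the TSS of CG14965. At the inner TSS of Hsp83 the signal was 33.2, rank 5678 of 5860, with a q value above 0.05. The heat shock units printed above and a TATA box, outside the printed run, lie before that TSS. Replicate 1 had 524.6 and 377.4 at the neighbours, 130.0 at equal distance (239 bp) from Hsp83 and CG14965, and 41.3 at the inner TSS. Replicate 2 had 319.0, 128.7 and 31.6, all nearest to neighbours, and at the inner TSS a region of signal 4.2 that missed the threshold. By the summit nearest to its own TSSs, Hsp83 was number 4399 of 4424 genes with a signal of 33.2. The value rests on a small difference in distance, since the 169.6 summit was nearly as close to Hsp83 as to CG14965.

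**Figure D2:**
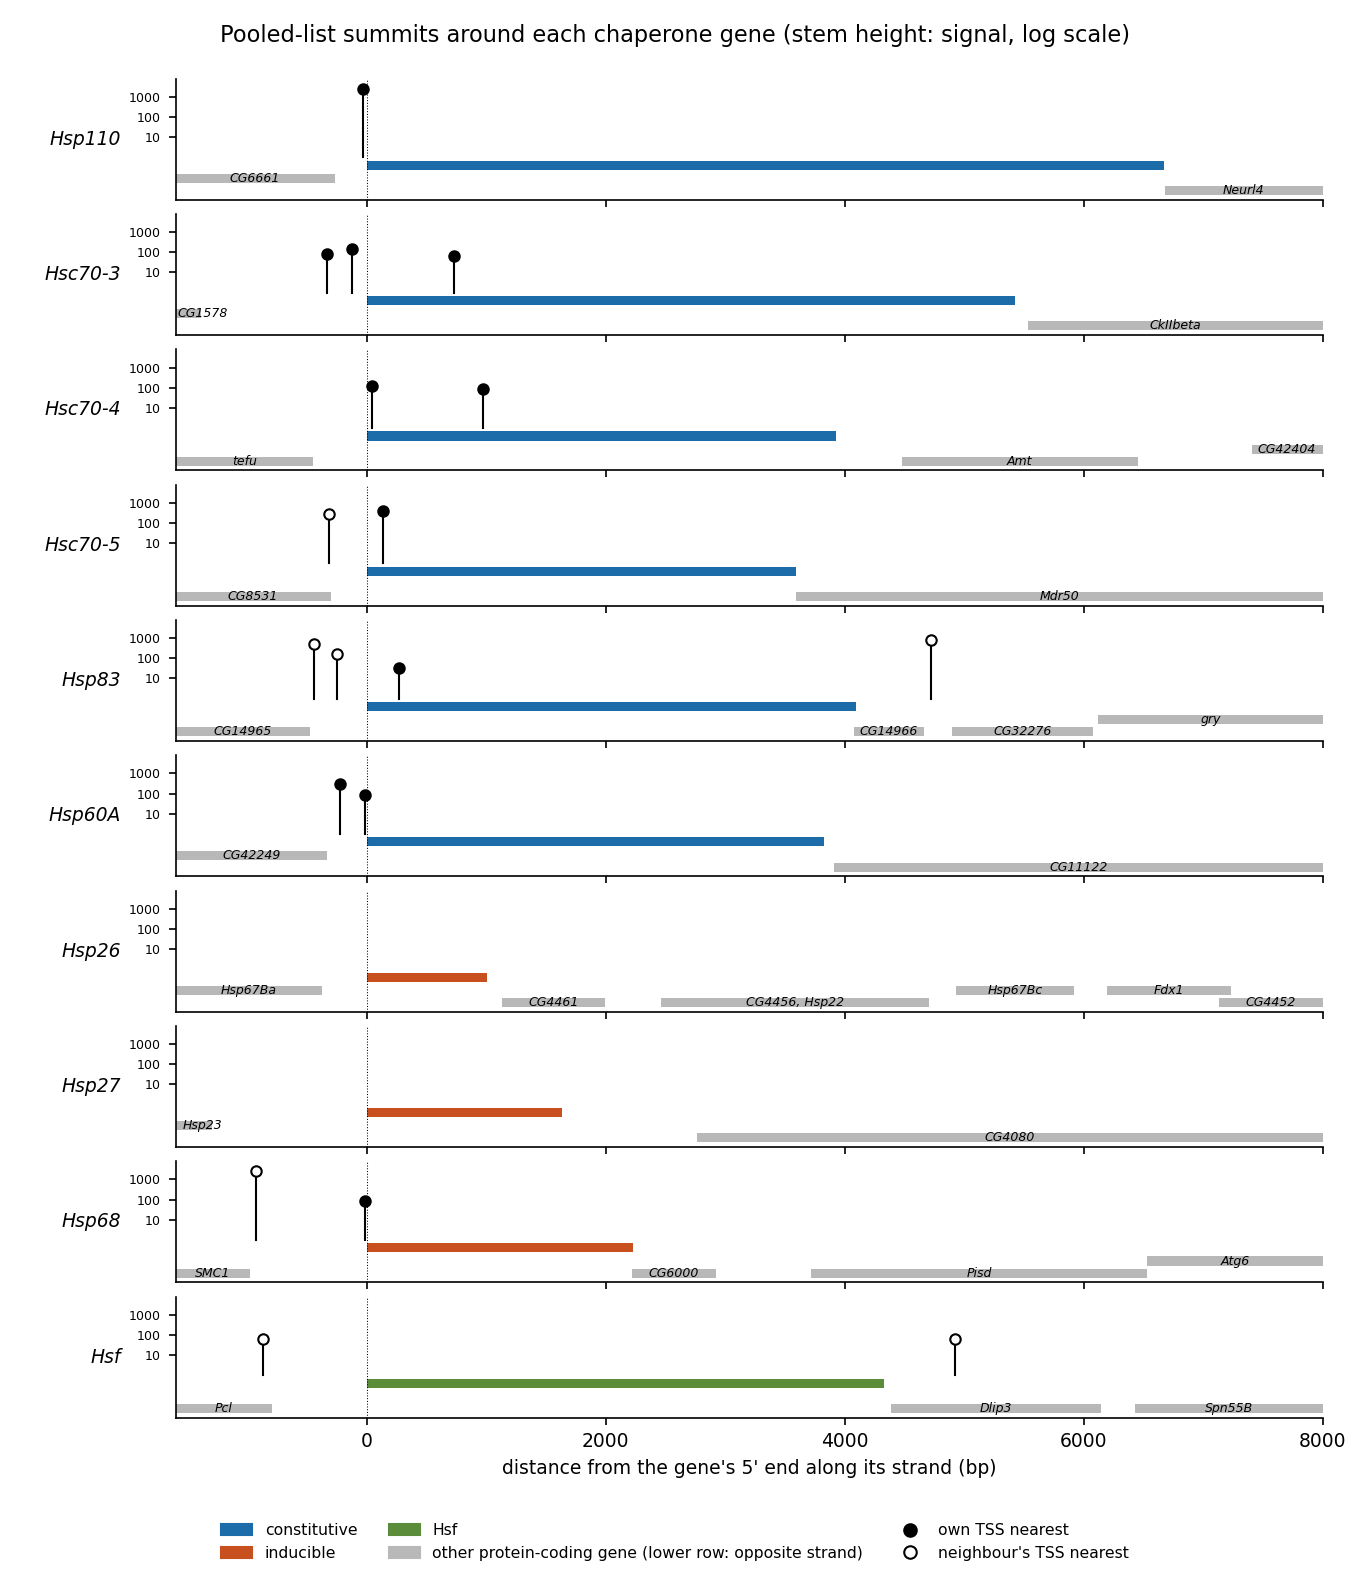
Pooled summits (stems; height is the signal on a log scale) along the 10 genes, drawn to scale by distance from each gene's 5′ end in bp, with neighbouring protein-coding genes in grey. The tallest stems at Hsp68 (2638.7) and Hsp83 (855.5) stand at the starts of neighbouring genes and are open, while that of Hsp110 (2402.4) stands at its own start.

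Hsp68 (FBgn0001230, chr3R:24055080-24057310, minus strand), a heat-inducible Hsp70-family chaperone, had the highest signal within reach of any of the 10 genes, but at another gene. That summit, 2638.7 in the pooled list (rank 14), lay 929 bp before the Hsp68 TSS and 48 bp from the TSS of SMC1, with 4 CGATAG matches in its window. It was at the same base in both replicates, with 1884.3 (rank 16 of 6214) in replicate 1 and 754.6 (rank 18 of 2973) in replicate 2. The summit of Hsp68 itself had a signal of 90.1 (rank 3608) in the pooled list and 57.9 in replicate 1, at 17 and 28 bp before the TSS. Replicate 2 had no region within 500 bp of the Hsp68 TSS in its ranked list. The promoter with the densest heat shock units among the 10 thus carried a modest peak in 1 replicate of the pair, next to a promoter that was among the strongest in both.

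Hsp26 (FBgn0001225, chr3L:9376418-9377427, minus strand) and Hsp27 (FBgn0001226, chr3L:9384063-9385694, plus strand) are small heat shock proteins of 1 gene cluster. Hsp26 had no summit in any of the 4 thresholded lists. Its regions in the ranked lists had signals of 46.7 in the pooled reads (71 bp after a TSS) and 55.8 in replicate 1 (33 bp after), with −log10 IDR values of 0.12 and 1.43, and replicate 2 had none at the promoter. Hsp27 had no listed peak in the pooled list, and in replicate 1 it had 29.4 (rank 5874) at 140 bp before and 16.4 at 61 bp after the TSS, both with a q value above 0.05. Its pooled region below the threshold had 34.9, at 90 bp before the TSS, and replicate 2 had none. These unlisted pooled signals of 46.7 and 34.9 were above the listed 33.2 of Hsp83, whose −log10 IDR was 2.43: the lists were cut on reproducibility and not on signal.

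Hsf (FBgn0001222, chr2R:18130303-18134634, minus strand) had 2 weak pooled summits, both nearer to neighbours and both with a q value above 0.05. One of 63.2 (rank 4680) was in a coding exon of Dlip3, and one of 60.3 (rank 4819) was in the 5′ UTR of Pcl, a Polycomb-group gene, 74 bp from its TSS. Replicate 1 had 36.8 at Pcl, and replicate 2 had none. At the TSS of Hsf itself regions of 28.8 (pooled) and 41.2 (replicate 1) missed the threshold. The gene for the heat shock regulator thus had no listed summit of its own in any of the 4 lists.

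By class, the median signal of the strongest pooled summit was 360 over the 6 constitutive chaperones, from 124.1 for Hsc70-4 to 2402.4 for Hsp110. With summits nearest to the gene's own TSS it was 223, from 33.2 for Hsp83. The inducible class had 1 value, 2638.7 by any summit and 90.1 by its own. That own value of Hsp68 fell inside the constitutive range, below 5 of the 6 and above Hsp83. In own pooled signal the classes thus overlapped through Hsp83 alone. That overlap was absent when the 169.6 summit between Hsp83 and CG14965 was counted as that of Hsp83. In replicate 1 the own signals of Hsp68 (57.9) and Hsp27 (29.4) were below those of all 6 constitutive chaperones, the lowest 93.8 (Hsc70-4). There Hsp83 was counted with the 130.0 summit it shares with CG14965, while its inner TSS had 41.3. Neither these differences nor that in how many genes had a summit were tested. Over the 8 genes with a pooled summit the median distance of the strongest summit from the gene's TSS was 173 bp, and over the 7 with a summit of their own it was 31 bp. The reach of 1000 bp had Hsp68 (929 bp), Hsf (866 bp, 60.3) and Hsp83 (627 bp, 855.5) farthest inside it. Just outside lay a summit of 97.0 at 1880 bp from Hsf, nearest to Dlip3, and one of 87.0 at 2321 bp from Hsp27 and 4315 bp from Hsp26, nearest to Hsp23.

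Sequence was not used in choosing the genes. Within 50 bp of the summit, CGATAG was present at 6 of the 18 pooled summits of the listed genes (33.3%) and at 3 of the 11 nearest to the gene's own TSS (27.3%), beside 25.7% of all 5823 pooled summits on the main arms. These shares are close to that of the whole list. Among the strongest summit of each gene, it was present at those of Hsp110, Hsc70-5, Hsp60A and, at the TSS of SMC1, Hsp68. Hsp110, Hsc70-5 and Hsp60A were also the 3 genes with a summit of their own in replicate 2. In that list the own summits of Hsp110 and Hsc70-5 held CGATAG, while that of Hsp60A did not. The same 3 genes had the strongest own pooled signals (2402.4, 415.9 and 304.7). Signals were used in choosing the genes, and the pooled reads include those of replicate 2. The share of CGATAG among peaks of like signal is not given, so nothing is read from this overlap. None of the summits nearest to Hsc70-3, Hsc70-4, Hsp83 or Hsp68 held CGATAG in the pooled list. Around the 5′ end, CGATAG was present in 3 of 10 promoters, beside 19.5% of all. They include Hsp83, where it starts at position −179, and Hsf, where it starts at −1, genes with a weak own peak and with none. From 500 bp before the 5′ end CGATAG was in 5 of 10, adding Hsc70-5 and Hsp60A, beside 25.6% of all promoters. Over every annotated TSS it was also in 5 of 10, with Hsc70-4 and Hsc70-5 added instead, beside 22.3% of all genes. E-boxes (CANNTG), the sites that bind basic helix-loop-helix proteins, were present at 7 of the 18 pooled summits (38.9%), beside 40.4% of all pooled summits. Motif matches are letters in a window on either strand, not measured binding.

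Heat shock units followed another pattern. From 250 bp before to 50 bp after the 5′ end, GAANNTTC was present in 4 of 10 genes (Hsp110, Hsc70-4, Hsp26 and Hsp68), beside 9.37% of all protein-coding promoters. Hsp68 had 4 matches, starting at positions −177, −167, −86 and −53 from the TSS, and its run from −182 to −160 holds 3 overlapping forms with 3 units. That longer form is in 0.43% of all promoters. Counted over every annotated TSS it was present in 2 of 10 genes, Hsp68 and the constitutive Hsc70-4 (from −205 to −193 of an inner TSS), beside 0.567% of all genes. For GAANNTTC, the count over every annotated TSS was 6 of 10, adding Hsp83 (68 bp before its inner TSS) and Hsp60A, beside 1669 of 13945 protein-coding genes. Among all pooled summits 2.47% held GAANNTTC within 50 bp, and 2 of the 18 at the listed genes did. One was the own summit of Hsp68, together with its TATA box. The other was the 268.4 summit in the 5′ UTR of CG8531, the divergent neighbour of Hsc70-5. Both replicates listed that summit.

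A TATA box, TATAAA starting 35 to 20 bp before an annotated TSS, was found in 5 of 10 genes, beside 8.54% of all protein-coding genes. It started 28 bp before a TSS in Hsp26, Hsp27 and Hsp68, 30 bp before the inner TSS of Hsp83 and 27 bp before the outermost TSS of Hsc70-4. The strongest own pooled signals of these 5 were 124.1 for Hsc70-4, 90.1 for Hsp68 and 33.2 for Hsp83, and Hsp26 and Hsp27 had no summit. Of the 5 genes with no TATA box, 4 had own signals of 2402.4 (Hsp110), 415.9 (Hsc70-5), 304.7 (Hsp60A) and 140.3 (Hsc70-3), and Hsf had none. The 4 pooled values with no TATA box were above the 3 with one, the closest being 140.3 for Hsc70-3 and 124.1 for Hsc70-4. The sets overlapped when the 169.6 summit between Hsp83 and CG14965 was counted as that of Hsp83. They also overlapped in replicate 1, where the shared summit of Hsp83 had 130.0 and Hsc70-3 had 101.7. This comparison was chosen after the values were seen, over 10 genes, and was not tested.

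**Figure D3:**
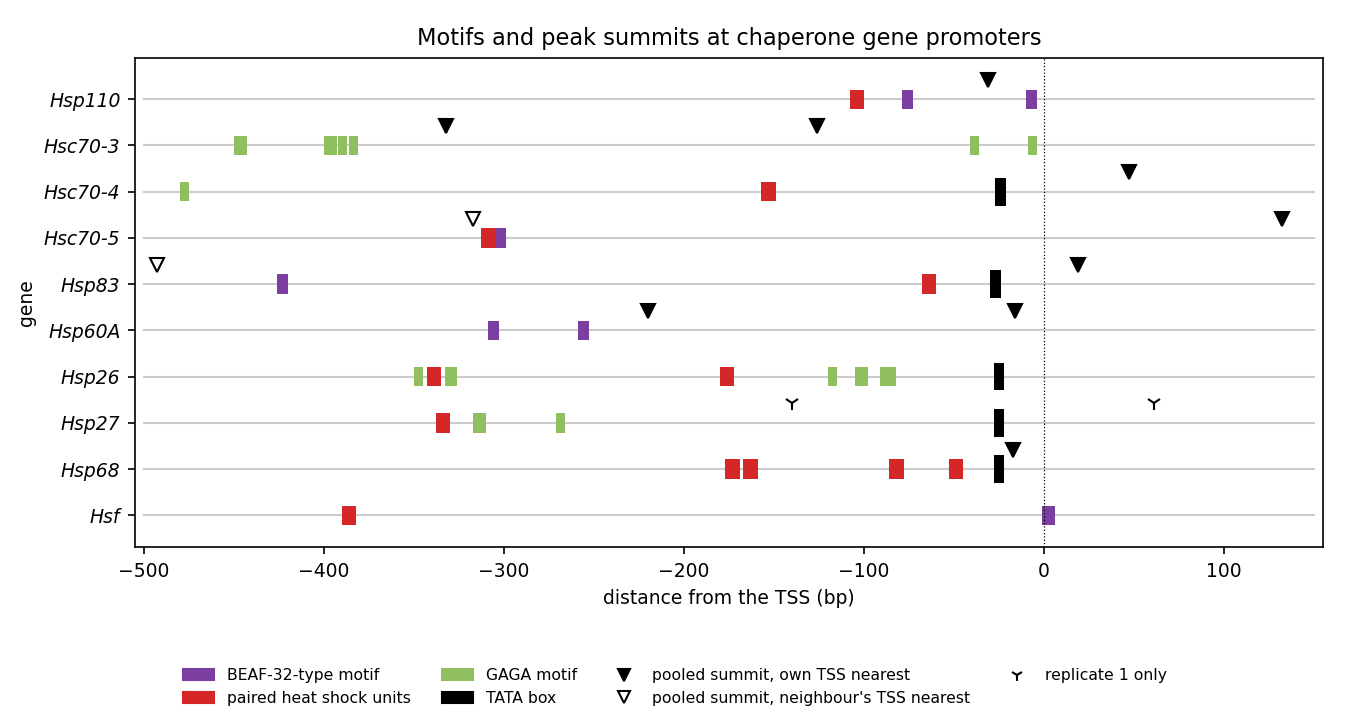
Motif matches (bars) and pooled summits (triangles) by distance in bp from the TSS of each gene, taken at the TSS with a TATA box for Hsp83 and Hsp26 and at the 5′ end otherwise; motifs were searched up to 50 bp after the TSS, and Hsp27 had summits in replicate 1 alone. TATA boxes mark Hsc70-4, Hsp83, Hsp26, Hsp27 and Hsp68, and the summit of Hsp110 and the stronger summit of Hsp60A lie near BEAF-32-type motifs. The BEAF-32-type motif at the own summit of Hsc70-5 lies outside the searched stretch and is not drawn.

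The other genes of the folding machinery were taken from 8 lists of 66 protein-coding genes in all, chosen by function and with earlier results of these data known. Of these, 46 (69.7%) had a pooled summit in reach and 36 (54.5%) one of their own, beside 47% and 31.7% of all protein-coding genes and 8 and 7 of the 10 genes above. The median own signal was 268 over those 36, beside 153 over all genes with such a summit. The lists differed widely among themselves.

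The remaining Hsp70-family and small heat shock genes had few pooled summits. None of the 8 other Hsp70-family genes had a summit in any of the 4 lists. Of these, 6 are near-identical Hsp70 copies, and how reads that match several copies were handled is not given in the sources used here. Hsc70-1 and Hsc70-2, the others of the 8, had no summit either. Of the 6 other small heat shock genes, Hsp23 alone had a pooled summit, of 87.0, with 91.8 in replicate 1 and none in replicate 2. Replicate 1 listed a summit in reach of 4 of these 6 genes and one of their own at 2. Hsp23, like Hsp68, had a modest peak in replicate 1 that replicate 2 did not list. The same held for the constitutive Hsc70-3 (101.7 in replicate 1) and Hsc70-4 (93.8). Replicate 2 listed fewer peaks (2973, against 6214), so this is not particular to inducible genes.

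The other folding families had many. All 8 subunit genes of the cytosolic CCT chaperonin had a pooled summit of their own, the strongest at CCT7 (649.0) and CCT1 (536.7), while the 1731.2 within reach of CCT8 lay at the TSS of CG30349, beside an own signal of 229.0. Of 11 DnaJ (Hsp40) genes 10 had a summit and 9 one of their own, led by DnaJ-1 (1266.6), P58IPK (1079.6) of the endoplasmic reticulum and the translocation factor Sec63 (706.0), with jdp the one without. Of 12 co-chaperones of Hsp90 and Hsp70 11 had a summit and 8 one of their own, with nudC the one without. STUB1, a ubiquitin ligase that works with Hsp70, had 1396.7 in the pooled list and 1269.4 in replicate 1 but no listed summit in replicate 2. Fkbp59 had 776.1, nearest to the TSS of CG34183, and the Hsp90 partner Sgt1 had 464.0.

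Prefoldin hands unfolded proteins to CCT, and 4 of its 6 subunit genes had a pooled summit and 3 one of their own, led by Pfdn1 (688.9), Pfdn5 (316.8) and mgr (285.7), with none at Pfdn2 and Pfdn4. Of 11 chaperones of the endoplasmic reticulum and mitochondria 8 had a summit and 5 one of their own, with a median own signal of 140, below the 153 of all genes. Trap1, the mitochondrial Hsp90, had 773.0 nearest to Vha16-1, Roe1, the exchange factor of mitochondrial Hsp70, had 750.2, and the disulphide isomerase Pdi had 566.1, while the Hsp60A relatives Hsp60B, Hsp60C and Hsp60D had none. All 5 regulators of the heat shock response had a summit in reach and 3 had one of their own, with DnaJ-1 counted here again. Nelf-A, a subunit of the complex that holds paused polymerase, had 581.1 nearest to CG3337. Trl, the gene of GAGA factor, had 190.2 nearest to Mgat4a and 54.6 of its own.

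**Figure D4:**
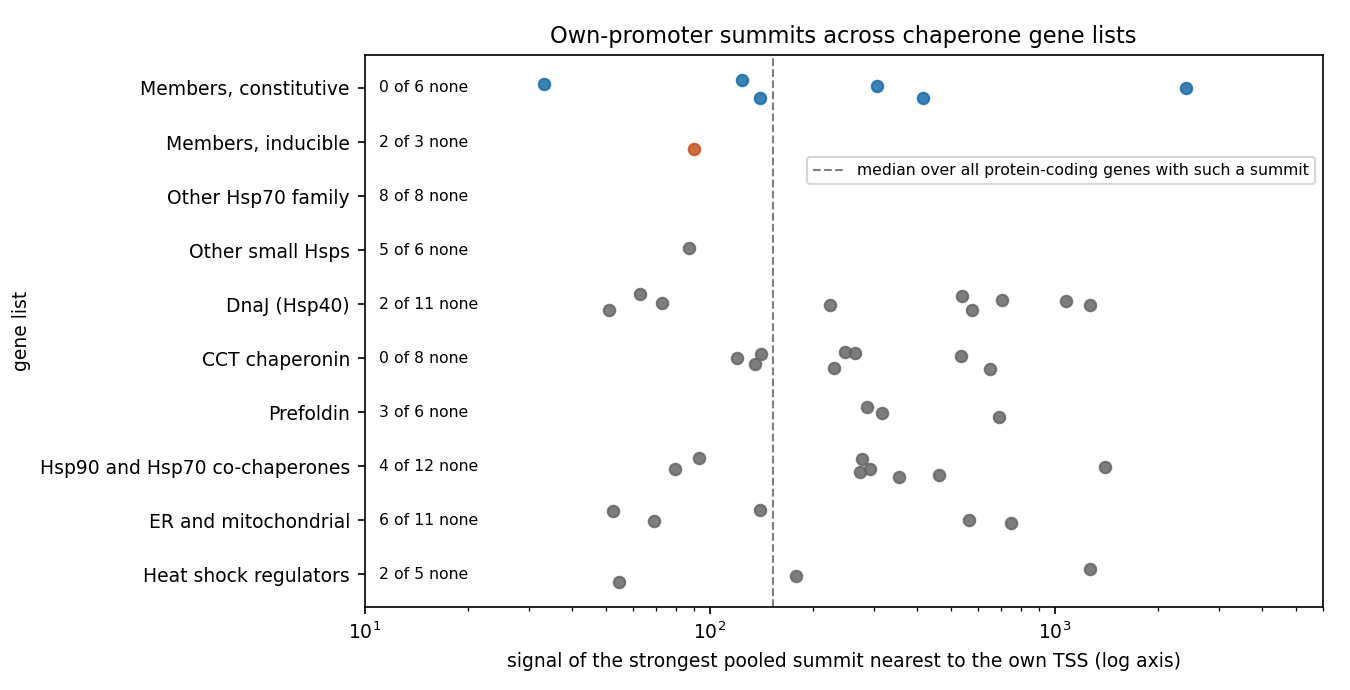
Signal (log axis) of the strongest pooled summit nearest to each gene's own TSS, by gene list, with the number of genes that had none; the dashed line is the median of 153 over all protein-coding genes with such a summit. Points are absent for the other Hsp70 family (8 of 8 without) and present for all 8 CCT genes.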

How the data were processed

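ChIP-seq peaks were analysed from 2 biological replicates of 1 group. Peaks were called on dm6, per the file headers and labels, on each replicate and on pooled reads. The authors deposited 8 lists (4 thresholded, 4 ranked). Which aligner and caller made them is not given in the sources used here. Signal, as deposited, is the peak caller's value. Each deposited list gives −log10 of a peak's q-value, and each ranked list −log10 of its global IDR. The 32 columns of per-input values in the ranked lists name no sample and were not used. The lists give no read counts, so depth is unknown and no interval that needs it is given.

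From these lists, summits in a gene body or within 1000 bp were taken, with Ensembl release 115 annotation on Release 6 (13945 protein-coding genes on the main arms, coordinates 1-based). Motifs were searched on both strands, TATA boxes on the gene's strand. Python 3.11.15, pandas 2.3.3, numpy 2.4.6 and matplotlib 3.10.9 were used, and the counting was tested on simulated data. The members, gene lists and comparisons were chosen with earlier results of these data known, so no test was made. Named genes are the 10 members, up to 3 genes of highest pooled signal in each other list, the genes with none where these are 3 or fewer, and any gene whose TSS is nearer to a member's summit. STUB1 among them is also described by replicate, chosen after its values were seen. Hsc70-1 and Hsc70-2 were named in addition, also after their values were seen. Of 73 symbols asked in the other lists, 1 was matched by an older name (Hsp67Bb as CG4456), 5 were not matched (Hsc70-6, l(2)tid, Ahsa1, HYOU1 and HSBP1), and the non-coding lncRNA:Hsromega had no summit. Alternatives were other lists, q values of 0.05 or less, other reaches, windows and TSS choices.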

Additional observations from a re-analysis of the deposited data

How the results depend on the processing

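Of 45 alternative settings, 27 moved a value by less than the spread of the replicates' lists, or a count by 1.5 times at most, and 18 moved it further. The count of members with a summit (8 in the pooled list) was 5 to 9 in the lists of single replicates and 4 with no reach outside the gene body. That of other chaperones (46) was 18 with no reach. No share over all protein-coding genes is given for that setting, so nothing is read from these lower counts. The constitutive median signal (360 over 6 genes) was 416 over 5 genes in the conservative list, 233 over 4 in replicate 2 and 296 over 6 in replicate 1. It was 223 with the own TSS nearest and 539 for the sum of all summits. The inducible value (2638.7, from Hsp68 at SMC1) was 755 in replicate 2, again from Hsp68 alone, and 90.1 with the own TSS nearest. In replicate 1 it was 957, the median of Hsp68 at SMC1 (1884.3) and Hsp27 (29.4). The median distance to the TSS (173 bp) was 134 in the conservative list, 89 to 140 in single replicates, 126 with q values of 0.05 or less and 31 with the own TSS nearest. CGATAG was at 2 of 8 strongest summits in windows of 25 bp, against 4 in windows of 50 bp. GAANNTTC was in 7 of 10 promoters over 500 bp, beside 15.9% of all, against 4 over 250 bp, beside 9.37%. The form with 3 units was in 1 over 250 bp, beside 0.43%. Nearest own TSS and every annotated TSS were added after seeing the data. The cause of these moves was not tested.

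No paired analysis was possible because there is 1 group. Scales of signal differ between lists, so medians across lists are not changes in binding. Replicate 2 listed fewer peaks than replicate 1, and peaks of fixed width place summits coarsely. Counts over 3 inducible and 6 constitutive genes are small, neighbouring genes share peaks, and no control pull-down was analysed here.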
